A study of Mus musculus with 4 samples.

Results

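The genes described are Eph receptors and ephrins that pattern the crypt axis of the intestine. Members were the probe sets whose platform gene symbol is Ephb2, Ephb3, Ephb4, Epha1, Epha2, Epha4, Efna1, Efna4, Efnb1 or Efnb2. The rule found 9 of the 10 genes, among 18193 genes in all, with 21 probe sets of 45101. No probe set listed in the platform's gene table carries the symbol Ephb2, so Ephb2 was not analysed here. All 9 genes lay above the filter on dim genes, as did 11392 genes in all, the filter being a mean of log2(intensity + 16) over the 4 arrays of at least 5.04, which corresponds to an intensity of 16.9.

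RNA came from mouse intestinal organoids, 3-dimensional cultures of gut epithelium in Matrigel, on 4 Affymetrix arrays. The groups were Tacc3 wt/wt at day 4, Tacc3 fl/fl at day 4, Tacc3 wt/wt at day 6 and Tacc3 fl/fl at day 6, with 1 array each. All groups received 4OHT (4-hydroxytamoxifen) for 24 hours, to recombine Apc and, where it was floxed, Tacc3. The sample descriptions call both day 4 groups normal and both day 6 groups Apc-deficient, whereas the design text has both genes recombined by 4OHT before collection at either day, so the Apc state of each array is not settled by the labels. The sources used here do not give the Cre driver, the floxed exons or the number of mice or cultures behind each array. Since each group is a single array, differences carry no replicate error, no p-value was computed, and a gene was called where it differed at least 2-fold, that is by 1 on the log2(intensity + 16) scale. All differences below are on that scale, where those of dim genes come out smaller than their ratio of intensities.

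Eph receptors are receptor tyrosine kinases, and their ligands, the ephrins, are bound to the membrane of a neighbouring cell, so that contact between cells signals in both directions. Ephrin-A ligands are held by a lipid anchor and ephrin-B ligands span the membrane. In the mouse intestine EphB2 and EphB3, whose genes are targets of Wnt/beta-catenin signalling, are high at the crypt base, and ephrin-B1 and ephrin-B2 are high towards the villus. This opposition keeps cells in their place along the axis.

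Array-wide facts bear on all the values. The brightest Tacc3 probe set, 1417450_a_at, was at 32.5% of the wt/wt intensity in fl/fl cultures on day 4 and at 29.8% on day 6. Its dimmer probe sets were at 48.9% and 50.7% (1455834_x_at) and at 80.4% and 87.2% (1436872_at). Apc was brightest on 1420956_at, where day 4 intensities were 27.9 (wt/wt) and 53.5 (fl/fl) and those of day 6 were 122 and 150. Its probe set 1420957_at ran the other way between the days, with 20.8 and 26.4 at day 6 below both day 4 arrays, wt/wt being at 81.9 on day 4. Which of these probe sets lie in the recombined parts of either gene is not given in the sources used here. Median intensities of the arrays were 15.4 to 17.7. The 5' to 3' intensity ratio of the Actb control was 0.0610 and 0.0627 at day 4 and 0.180 and 0.261 at day 6, and that of Gapdh 0.208 and 0.142 at day 4 and 0.411 and 0.524 at day 6, in wt/wt and fl/fl organoids in that order. Of 12 intestinal epithelium markers all 12 lay above the filter, with a summed intensity of 23154 to 29909 at day 4 and 36870 to 40924 at day 6. Of other cell types, 3 of 12 mesenchymal markers (summed intensity 198 to 241 at day 4 and 138 to 149 at day 6), 2 of 10 endothelial markers (180 to 235 and 148 to 156) and 4 of 9 immune markers (269 to 277 and 192 to 217) did so. Col1a1, Pecam1 and Ptprc were below the filter. Above it were the mesenchymal markers Vim, Acta2 and Des and the endothelial markers Eng and Esam. The immune markers above it were Cd3e, Cd14, Csf1r and Lcp1. On the wt/wt day 4 array Eng read 98.3 and Lcp1 90.6. The part of these shifts between the days in the results below was not tested. In whole cultures, fewer cells of a type and less RNA per cell cannot be told apart.

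Promoter sequences are shown for Ephb3, the receptor known as a Wnt/beta-catenin target, and for the ephrins that passed 2-fold between the days, Efna4 and Efnb2. Each is the 250 bases before the transcription start, 5′ to 3′ on the gene's strand, from RefSeq's GRCm38.p6 annotation. They were searched on both strands for the core letters bound by TCF/LEF, the factors that act with beta-catenin, spelled CTTTG and then AA, AT, TT or TA with no gap, and capitals mark a match.
Ephb3, chr16:21204545-21204794, + strand: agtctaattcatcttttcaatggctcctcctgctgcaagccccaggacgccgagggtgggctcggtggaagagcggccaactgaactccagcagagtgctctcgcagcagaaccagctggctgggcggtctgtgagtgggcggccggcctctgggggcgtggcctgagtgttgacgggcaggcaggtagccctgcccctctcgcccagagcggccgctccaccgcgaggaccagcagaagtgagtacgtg
Efna4, chr3:89338029-89338278, - strand: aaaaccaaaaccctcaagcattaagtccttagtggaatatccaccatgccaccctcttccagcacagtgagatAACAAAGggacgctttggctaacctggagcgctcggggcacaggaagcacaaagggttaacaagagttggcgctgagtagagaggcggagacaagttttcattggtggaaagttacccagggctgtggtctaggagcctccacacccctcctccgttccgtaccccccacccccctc
Efnb2, chr8:8661243-8661492, - strand: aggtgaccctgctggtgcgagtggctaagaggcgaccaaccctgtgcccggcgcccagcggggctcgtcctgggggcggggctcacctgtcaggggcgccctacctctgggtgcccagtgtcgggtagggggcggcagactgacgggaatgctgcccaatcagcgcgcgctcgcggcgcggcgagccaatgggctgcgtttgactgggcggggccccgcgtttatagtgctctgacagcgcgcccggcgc
The letters matched once in Efna4, as AACAAAG on the strand shown, and once in Epha2, as CTTTGAA. They matched in 2 of the 11 promoters listed for the 10 genes (Efna1 has 2 starts), against 14.8% of all 32851 promoters in the table. The other 9 windows do not hold these letters, Ephb3 and Ephb2 among them.

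Intensities of a day and differences between the days that are given below as a pair are for wt/wt and fl/fl in that order, and genotype differences given as a pair are for day 4 and day 6.

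Of the B class receptors, Ephb3 had 1 probe set, 1451550_at, which gave 448 in wt/wt and 553 in fl/fl cultures at day 4, and 494 and 388 at day 6. The highest array was fl/fl at day 4 and the lowest fl/fl at day 6, with both wt/wt arrays between them. Day 6 differed from day 4 by 0.14 in wt/wt and by -0.49 in fl/fl cultures, short of 2-fold in both. Ephb4, the receptor known mainly for its pairing with ephrin-B2 in blood vessels, also had 1. Its probe set 1449845_a_at gave 54.3 in wt/wt and 46.3 in fl/fl cultures at day 4, and 67.3 and 72.2 at day 6. Both day 6 arrays lay above both day 4 arrays, by 0.24 in wt/wt and 0.50 in fl/fl cultures.

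Of the A class receptors, Epha1 lay closest to the filter. Epha1, the founding Eph receptor and one found in epithelia, gave 19.1 in wt/wt and 26.1 in fl/fl cultures at day 4, and 40.1 and 51.4 at day 6, on probe set 1422917_at. Both day 6 arrays lay above both day 4 arrays, by 0.68 in either genotype, and fl/fl was above wt/wt on both days. Its probe set 1432399_a_at ran the other way, with 24.9 and 25.8 at day 4 and 14.8 and 14.8 at day 6. Epha2, a receptor that binds ephrin-A1 in many epithelia, read 113 and 110 at day 4 and 91.1 and 93.5 at day 6. Its day differences were -0.27 (wt/wt) and -0.20 (fl/fl), so that the day 6 arrays lay slightly below the day 4 arrays. Epha4, a receptor that binds ephrins of both classes, read 99.2 and 104 at day 4 and 78.1 and 72.6 at day 6 on its brightest probe set 1421929_at, with day differences of -0.29 and -0.43.

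Among the ephrin-A ligands, Efna4 was higher than its wt/wt day 4 level on every other array. Its only probe set, 1421784_a_at, gave 34.6 in wt/wt and 78.6 in fl/fl cultures at day 4, and 101 and 98.3 at day 6. The wt/wt array at day 4 stood below the other three. In wt/wt organoids Efna4 rose 2.31-fold on the log2(intensity + 16) scale from day 4 to day 6, a difference of 1.21, and in fl/fl organoids the difference was 0.27. Efna1, the ligand of EphA2, read 103 and 106 at day 4 and 129 and 147 at day 6 on probe set 1416895_at, with day differences of 0.29 and 0.41. Its dimmer probe set 1448510_at differed by 0.91 and 0.92, with 10.3 and 14.1 on day 4 against 33.3 and 40.9 on day 6. Efna1, Efna3 and Efna4 are neighbours on chromosome 3 in RefSeq's annotation, with Efna3 in the middle. Efna3, an ephrin-A ligand outside the 10 genes, read 44.9 and 50.5 at day 4 and 23.0 and 30.8 at day 6 on its brightest probe set. Its day differences there were -0.64 and -0.50, opposite in sign to those of both its neighbours. The exception was the wt/wt difference of Efna1, at -0.18 after quantile normalization and -0.03 with each array centred. On the dimmer Efna3 probe set 1455344_at the day differences were -0.66 and -0.04, the fl/fl one being near 0.

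Among the ephrin-B ligands, Efnb2 was lower at day 6 on its brightest probe set. Probe set 1419639_at gave 546 in wt/wt and 586 in fl/fl cultures at day 4, and 266 and 266 at day 6. The arrays fell into 2 levels by day, with the genotypes close together within each. The day difference was -0.996 in wt/wt, just short of 2-fold, and -1.09 in fl/fl organoids, where Efnb2 fell past it to 0.469 of the day 4 level on that scale. Efnb1, the ligand best known for its crypt to villus gradient, read 124 and 138 at day 4 and 157 and 118 at day 6 on probe set 1418286_a_at, with day differences of 0.31 and -0.21. Those directions differ between the genotypes and neither reached 2-fold.

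**Figure D1:**
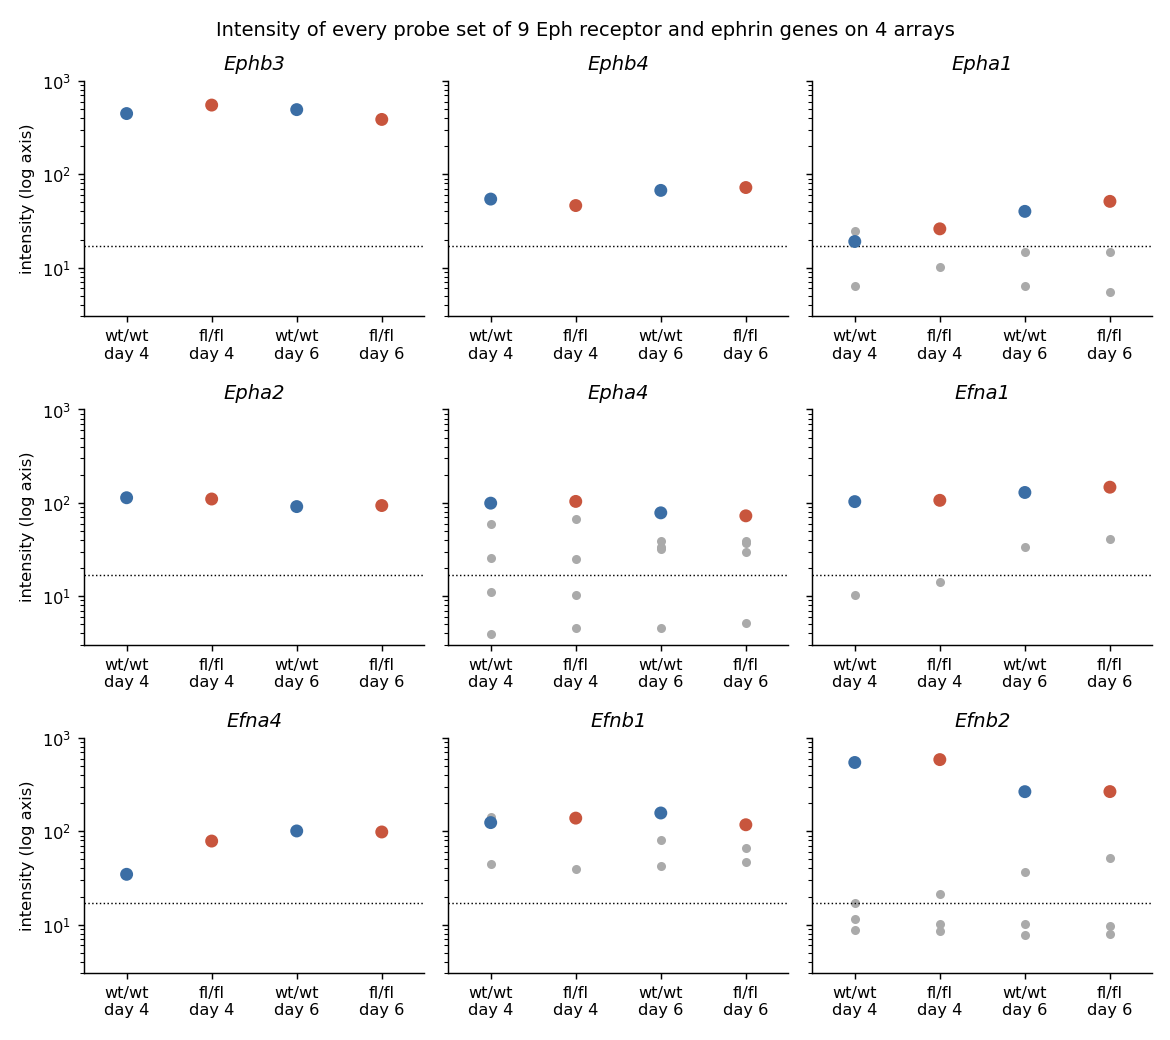
Intensity (log axis) of every probe set of the 9 genes on each of the 4 arrays; large points are the brightest probe set (blue wt/wt, red fl/fl), small grey points the others, and the dotted line is the filter intensity of 16.9. Efnb2 sits at 546 and 586 at day 4 and at 266 on both day 6 arrays, and Efna4 is lowest at 34.6 on the wt/wt day 4 array.

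The comparison of the days addresses what differed between day 4 and day 6 in each genotype. In wt/wt organoids 1 of the 9 genes was 2-fold higher at day 6 (Efna4) against 18.3% of all genes above the filter, and 0 were 2-fold lower against 2.97%. In fl/fl organoids 0 of the 9 were 2-fold higher against 12.2%, and 1 was 2-fold lower (Efnb2) against 2.9%. None of the 9 was called in both genotypes in one direction, against 9.37% of genes higher and 1.35% lower. The median day difference of the 9 was 0.24 (wt/wt) and -0.20 (fl/fl), against 0.17 and 0.00 for all genes. In wt/wt organoids 85.7% of genes had a smaller day difference in size than Efna4 and 78.6% a smaller one than Efnb2. In fl/fl organoids 87.7% had a smaller one than Efnb2. As alternatives, each array was centred on the median of its probe sets above the filter, or quantile normalization was applied. The median of all genes then moved from 0.17 to -0.14 (centred) or -0.13 (quantile normalization) in wt/wt organoids. In fl/fl organoids it moved from 0.00 to -0.17 or -0.12. The wt/wt day differences of Ephb3, Ephb4, Efna1 and Efnb1, all small and positive, then took the opposite sign, to -0.28, -0.09, -0.18 and -0.17 after quantile normalization. Efna4 was then short of 2-fold in wt/wt organoids (0.90 centred and 0.97 after quantile normalization), and Efnb2 passed it there (-1.31 and -1.44).

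Probe sets of one gene often disagreed between the days. Of the 21 probe sets 17 lay above the filter on average, and the other 4 read at most 11.4 on any array. Of the 17, 8 were higher at day 6 in both genotypes, 6 were lower in both and 3 had unlike signs. Besides the brightest probe sets of Efna4 and Efnb2, none of the 17 was 2-fold in either genotype. The matching shares of all probe sets above the filter are not given here, so these counts describe the members alone. Of the 5 genes with several probe sets above the filter, 4 (Epha1, Epha4, Efnb1 and Efnb2) had probe sets of opposite sign in both genotypes, which was so for 32.3% of the 4816 such genes in all.

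Efnb2 had the widest spread among its probe sets. Probe set 1419638_at, listed with the same transcript accession as the brightest, read 17.0 and 21.4 at day 4 and 36.5 and 51.4 at day 6. It was thus higher at day 6 by 0.67 and 0.85 where the brightest was lower. The distance between the pair of probe sets was 1.66 (wt/wt) and 1.95 (fl/fl), against a median over genes of 0.77 and 0.65, and 84.6% and 94.8% of genes had a smaller one. The other 2 Efnb2 probe sets read 7.73 to 11.4 throughout. With the mean of its 4 probe sets, the Efnb2 day differences were -0.11 and -0.08.

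Epha4 and Efnb1 were also divided. For Epha4, 1439757_s_at went with the brightest probe set, with 59.5 and 67.9 on day 4 against 39.1 and 38.8 on day 6. Its probe sets 1421928_at and 1429021_at went the other way, the first from 25.8 and 25.2 to 33.4 and 37.5 and the second from 11.2 and 10.2 to 32.2 and 29.4. For Efnb1, probe set 1418285_at read 141 and 139 at day 4 and 80.0 and 66.6 at day 6, differences of -0.71 and -0.91, so that both day 6 arrays lay below both day 4 arrays, unlike on its brightest probe set. The third Efnb1 probe set, 1451591_a_at, stayed between 39.6 and 47.3. For Actb and Gapdh the 5' to 3' ratio was higher on both day 6 arrays than on both day 4 arrays, and where each probe set lies in its transcript is not stated in those sources. Their part in these disagreements was not tested. With the mean of its probe sets Epha4 had day differences of 0.07 and 0.03, opposite in sign to its brightest probe set, and Epha1 had 0.09 and -0.02.

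**Figure D2:**
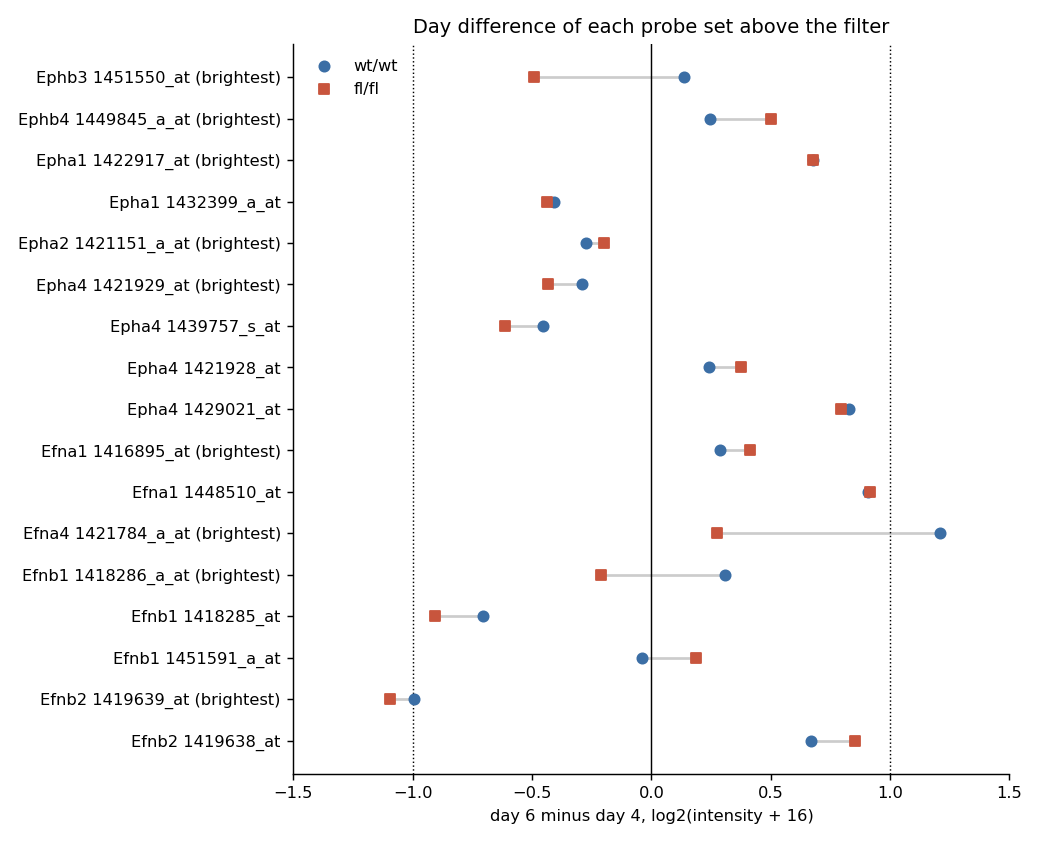
Day 6 minus day 4 on the log2(intensity + 16) scale for each of the 17 probe sets above the filter, in wt/wt (blue circles) and fl/fl organoids (red squares); dotted lines mark 2-fold. Probe sets of Efnb2 lie on opposite sides of 0, at -0.996 and -1.09 against 0.67 and 0.85, and Efna4 is the one with the widest gap between genotypes.

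The comparison of genotypes addresses what differed where Tacc3 was floxed. At day 4, 0 of the 9 genes were 2-fold different between fl/fl and wt/wt organoids, against 1.48% of all genes, and at day 6 also 0, against 0.781%. Efna4 was nearest to the threshold at day 4, at 0.90 higher in fl/fl organoids (78.6 against 34.6), and 97.5% of genes had a smaller difference in size. At day 6 it differed by -0.03, with 98.3 against 101. The genotype difference at day 6 was thus 0.93 below that at day 4, and 93.9% of genes had a smaller shift. Of all genes 4.1% had a shift of at least 2-fold in that direction.

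Ephb3 and Efnb1 were slightly higher in fl/fl than in wt/wt cultures on day 4 and lower on day 6. The genotype differences of Ephb3 were 0.29 and -0.34, a shift of -0.63, and those of Efnb1 were 0.14 and -0.37, a shift of -0.52. For Efnb1 this held on the brightest probe set alone: 1451591_a_at differed by -0.12 and 0.10, a shift of 0.23, and 1418285_at by -0.02 and -0.22. Of all genes, 73.7% had a smaller day 6 difference in size than Ephb3 and 78.1% a smaller one than Efnb1. On its brightest probe set Epha1 differed by 0.26 on both days, but on 1432399_a_at by 0.03 and 0.0006. The remaining members (Ephb4, Epha2, Epha4, Efna1 and Efnb2) differed by under 0.2 on both days on their brightest probe sets. Of their dimmer ones, 1419638_at of Efnb2 differed by 0.18 and 0.36, and 1448510_at of Efna1 by 0.20 and 0.21. The median genotype difference of the 9 genes was 0.10 at day 4 and 0.0026 at day 6, against 0.15 and 0.05 for all genes.

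**Figure D3:**
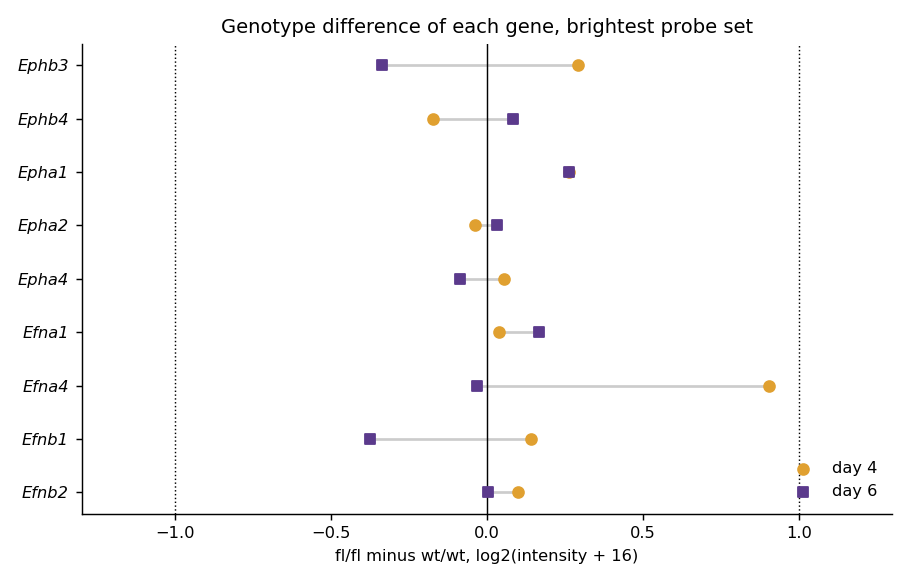
Genotype difference (fl/fl minus wt/wt, log2(intensity + 16)) of the brightest probe set of each gene at day 4 (yellow circles) and day 6 (purple squares); dotted lines mark 2-fold. None of the 9 genes reaches 2-fold, and Efna4 at day 4 is the nearest with 0.90.

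Most other members of the family were dim. Of 12 further Eph receptors and ephrins with a probe set, 5 passed the filter (Epha10, Efna2, Efna3, Efna5 and Efnb3), and the brightest probe sets of the other 7 read at most 22.2 on any array. None of the 5 was 2-fold in any of the 4 comparisons. Of all genes, 18.3% (wt/wt) and 12.2% (fl/fl) were 2-fold higher at day 6, and 2.97% and 2.9% lower. Between genotypes 1.48% of all genes were 2-fold different at day 4 and 0.781% at day 6. The median day differences of the 5 were -0.35 (wt/wt) and -0.28 (fl/fl), against 0.17 and 0.00 for all genes. Efnb3, the third ephrin-B ligand, read 38.4 in both genotypes at day 4 and 26.8 and 21.1 at day 6. Epha10, a receptor without kinase activity, read 45.3 and 39.1 at day 4 and 32.4 and 29.2 at day 6.

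Of genes that act with Eph receptors and ephrins, 35 had a probe set and 33 lay above the filter. Of these 33, 8 were 2-fold higher at day 6 in wt/wt and 8 in fl/fl cultures, against 18.3% and 12.2% of all genes. In both genotypes 6 were higher, against 9.37%. In wt/wt cultures 2 were 2-fold lower and in fl/fl cultures 1, against 2.97% and 2.9%. The medians of the 33 were 0.37 and 0.19, and after quantile normalization -0.02 and -0.01. The genes higher in both included Crk, an adaptor protein, with 1.56 and 1.76, Yes1, a Src-family kinase, with 1.52 and 1.41, and Sdcbp (syntenin), which binds the tail of ephrin-B, with 1.24 and 1.67. Adam10, the protease that sheds ephrins and cuts E-cadherin, gave 99.4 in wt/wt and 220 in fl/fl cultures at day 4, and 406 and 458 at day 6. At day 4 it was the only one of the 33 that was 2-fold different between genotypes, with 1.03, against 1.48% of all genes. At day 6 none of the 33 was, against 0.781%, and Adam10 differed by 0.17. Like Efna4, it was lowest on the wt/wt day 4 array, but so were others of the 33, Yes1, Rac1 and Cdc42 among them. Crk and Sdcbp were lowest on the fl/fl day 4 array. The share of all genes lowest on the wt/wt day 4 array is not given here. Cdh1, the E-cadherin gene, rose by 1.48 and 1.12 between the days.

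Wnt/beta-catenin targets and crypt base markers are given beside Ephb3, which belongs to the same signalling output in the crypt. Of the targets other than Eph genes, 18 had a probe set and 15 lay above the filter. Of these 15, 6 were 2-fold higher at day 6 in wt/wt and 3 in fl/fl cultures, against 18.3% and 12.2% of all genes. In each genotype 1 was lower, against 2.97% and 2.9%. The medians were 0.59 and -0.12, against 0.17 and 0.00 for all genes. Neither kept its sign in every setting, since the wt/wt median was -0.05 with no filter on dim genes and the fl/fl median 0.11 with the mean of probe sets. Axin2, the feedback inhibitor of the pathway, rose by 2.26 and 1.04, and Nkd1, another feedback inhibitor, fell by 1.90 and 1.76. Myc, a transcription factor that drives growth, rose by 2.41 and 1.16, and Znrf3, a ligase that removes Wnt receptors, by 1.87 and 1.33.

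Of 14 crypt base markers, 7 were 2-fold higher in wt/wt and 6 in fl/fl cultures, again against 18.3% and 12.2% of all genes, with medians of 1.38 and 0.93. This list shares Lgr5, Axin2, Ascl2, Sox9 and Tnfrsf19 with the targets. Olfm4, a secreted stem cell marker, rose by 2.95 and 3.10, and Cdca7 by 2.47 and 2.63. Lrig1, an inhibitor of ErbB receptors, rose by 3.03 and 1.70, and Rgmb, a co-receptor of BMP signalling, by 2.81 and 1.49. The stem cell receptor Lgr5 read 262 and 405 at day 4 and 983 and 706 at day 6. Not all of the list rose, with 11 of the 14 above 0 in wt/wt and 10 in fl/fl cultures. Sox9 differed by -0.06 and -0.37, Slc12a2 by -0.26 and -0.72, and Tnfrsf19 by -0.88 and -0.71. Msi1 differed by 0.57 and -0.12. The Ephb3 day differences were 0.14 and -0.49, within the range of this list.

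Between genotypes, Ephb3 was higher in fl/fl cultures on day 4 and lower on day 6, by 0.29 and -0.34, and so were Lgr5, by 0.60 and -0.47, and Axin2, by 0.79 and -0.43. The lists as a whole were mixed. Without further normalization, this order of signs was found in 8 of the 15 targets and 8 of the 14 crypt base markers, against 28.5% of all genes. It was found in 4 of the 9 Eph receptors and ephrins described (Ephb3, Epha4, Efna4 and Efnb1). Some of these signs rest on values near 0, with Epha4 at 0.05 and -0.09 and Efna4 at -0.03 on day 6. After quantile normalization the day 4 differences of Epha4 and Efnb1 were -0.18 and -0.11, and with each array centred that of Epha4 was -0.07. Olfm4, in contrast, was lower in fl/fl cultures on both days, by -1.06 and -0.91, and Nkd1 differed by 0.04 and 0.18.

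Of 17 villus enterocyte markers, 11 in wt/wt and 13 in fl/fl cultures were higher by 2-fold, against 18.3% and 12.2% of all genes, with day medians of 1.45 and 2.31 against 0.17 and 0.00. Enpep, a brush border peptidase, rose by 4.44 and 4.75, Cyp3a11, a drug-metabolising enzyme, by 2.86 and 3.37, Fabp2, the intestinal fatty acid binding protein, by 2.44 and 3.40, and Mttp, which loads lipid onto lipoproteins, by 2.34 and 2.89. Paneth cell markers, of cells that EphB3 helps keep at the crypt base in mice, had medians of -0.42 and -1.07, against 0.17 and 0.00. Of 10 such markers, 1 in wt/wt and 5 in fl/fl cultures were 2-fold lower, against 2.97% and 2.9% of all genes. In each genotype 1 was 2-fold higher, against 18.3% and 12.2%. Among them Reg3g, an antimicrobial lectin, rose by 2.53 and 2.36, and Clps, the colipase gene, fell, with day differences of -1.42 and -2.07. Of the 12 epithelium markers, 5 in wt/wt and 4 in fl/fl cultures were 2-fold higher, against 18.3% and 12.2% of all genes. Their medians were 0.91 and 0.64, and the lowest day differences 0.03 and -0.23. Epcam, an adhesion molecule, rose by 2.39 and 1.69, and Cldn7, a claudin, by 1.70 and 1.55. The keratin gene Krt20 rose to 534 and 767 at day 6, its day 4 intensities being 190 and 180.

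**Figure D4:**
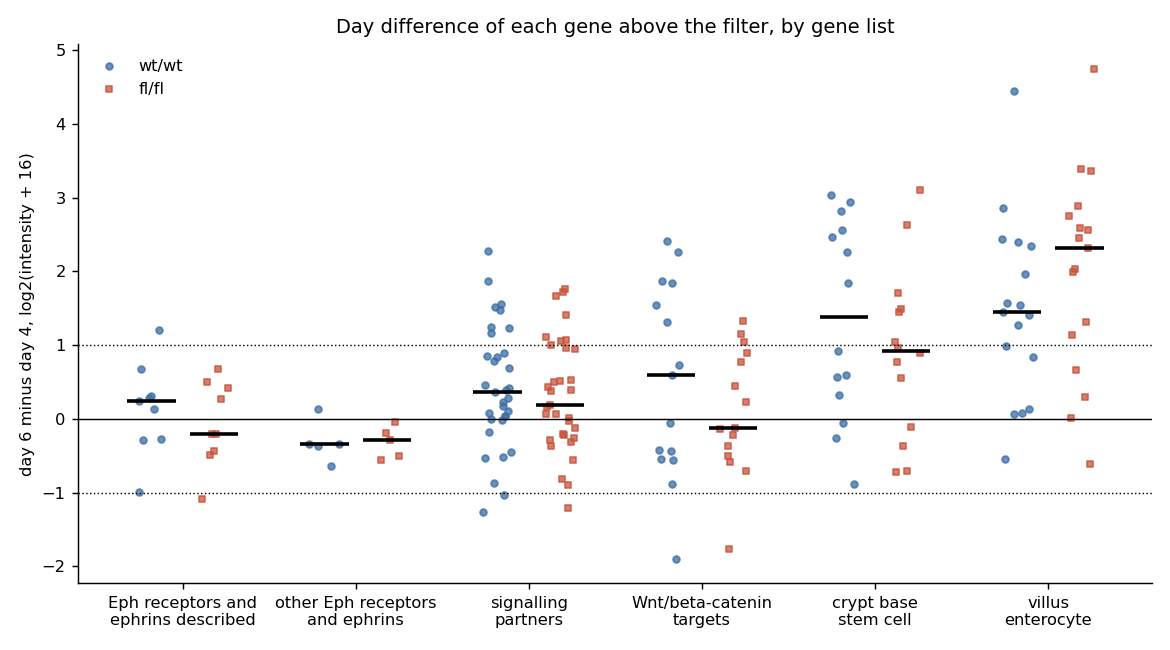
Day 6 minus day 4 on the log2(intensity + 16) scale for each gene above the filter in 6 lists, in wt/wt (blue circles) and fl/fl organoids (red squares); black bars are medians and dotted lines mark 2-fold. The Eph receptors and ephrins described lie between -1.09 and 1.21, with medians of 0.24 and -0.20, while the enterocyte medians are 1.45 and 2.31.

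Genes with a like profile over the 4 arrays were ranked by the distance between profiles, each taken as log2(intensity + 16) minus its own mean. Nearest to Ephb3 were Ces1e (distance 0.0155), Ehmt2 (0.0251) and Spg7 (0.0353). Nearest to Efnb1 were Zfp956, Zc3hc1 and Cct3, at 0.0330 to 0.0559. Nearest to Efnb2 were Thap7, Vps37c and Plekha5, at 0.0473 to 0.0602. Likeness over 4 arrays is common, since 553 genes lay within 0.25 of Ephb3, 487 of Efnb1 and 140 of Efnb2.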

How the data were processed

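Gene expression was measured in 4 groups of mouse intestinal organoids with 1 Affymetrix array each, grouped by the array titles. Per the labels' protocols, biotinylated cRNA was made from 100 ng of total RNA with a kit for 3' in vitro transcription. The deposited values are 1 linear intensity per probe set, as the values themselves show; how the authors summarised, background-corrected and scaled them is not given in the sources used here. The number of arrays limits the precision.

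Intensities were analysed as log2(intensity + 16) without further normalization. The platform's gene table gives 1 symbol for 34958 probe sets and several for 932, which were not used; symbols were updated by Entrez ID with RefSeq's GRCm38.p6 table. For each gene the brightest probe set, by its mean over the arrays, was used. Genes with a mean at or above the median of all probe sets (log2 5.04) were counted, and 2-fold differences were called by size without a p-value.

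The 10 genes and the 11 gene lists were chosen with earlier results of these data known. Named were all members, list genes 2-fold in the same direction in both comparisons of a pair (up to 4), the targeted genes, the 3 nearest profiles of Ephb3, Efnb1 and Efnb2, the mesenchymal, endothelial and immune markers above the filter, and single genes a sentence turns on. Efna3, Efnb3, Epha10, Adam10, Cdh1, Lgr5, Rac1, Cdc42, Sox9, Slc12a2, Tnfrsf19 and Msi1 were chosen after their values were seen. A signalling partner that the naming rule picks is not reported here. Alternatives were pseudocounts of 1 and 64, quantile normalization, centring, the mean of probe sets, no x_at or s_at probe sets, and no filter. The calling code was run on simulated arrays with planted shifts above the threshold and little noise. That run checks the code and gives no error rate for calls on the real arrays. Python 3.11.15, numpy 2.4.6 and pandas 2.3.3 were used.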

Additional observations from a re-analysis of the deposited data

Results flagged for a closer look

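Between the genotypes, 6 genes differed in opposite directions at the 2 days, and 2 of them also between the days in opposite directions in the 2 genotypes. Opposite signs were common, since 28.5% of all genes were higher in fl/fl at day 4 and lower at day 6, as were 4 of the 9 members. The share of all genes with the other order, or with opposite day differences, is not given here. None of these differences between effects was tested, since each group has 1 array, and most are small. The genotype difference at day 6 minus that at day 4 was -0.93 for Efna4 (0.90 and -0.03), -0.63 for Ephb3 (0.29 and -0.34), -0.52 for Efnb1 (0.14 and -0.37), 0.26 for Ephb4 (-0.17 and 0.08), -0.14 for Epha4 (0.05 and -0.09) and 0.072 for Epha2 (-0.04 and 0.03). The day differences in wt/wt and fl/fl organoids were of opposite sign for Ephb3 (0.14 and -0.49) and Efnb1 (0.31 and -0.21), with the same shifts of -0.63 and -0.52. Efna4 rests on 1 probe set, and its shift ranged from -1.20 to -0.55 over the 8 settings; those of Ephb3 and Efnb1 ranged from -0.65 to -0.48 and from -0.57 to -0.16.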

How the results depend on the processing

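The counts of called genes rest on values close to 2-fold. The number of members 2-fold higher at day 6 in wt/wt organoids, 1 as reported, was 2 with pseudocount 1 (Epha1 at 1.03 joined Efna4) and 0 with pseudocount 64, quantile normalization or centring. The number 2-fold lower in wt/wt, 0 as reported, was 1 (Efnb2) with pseudocount 1, quantile normalization or centring. The number 2-fold lower in fl/fl, 1 as reported, was 0 with pseudocount 64 (Efnb2 at -0.98) or the mean of probe sets (-0.08). With pseudocount 1, Efna4 passed 2-fold between genotypes at day 4 (1.16), so that 1 gene was called, and in its shift between the days (-1.20), again 1 gene. The median of the members between the days in wt/wt was 0.24 as reported, -0.07 centred and -0.18 after quantile normalization; that between genotypes at day 4 was 0.10, -0.02 and -0.11. Of 315 values of single members under an alternative, 304 kept their side of 2-fold, 6 newly passed it and 5 no longer did. Efna4 was higher at day 6 in wt/wt organoids under all 8 settings (0.74 to 1.52), and Efnb2 lower in both genotypes (-1.44 to -0.11 and -1.36 to -0.08). Among genes above the filter, the count 2-fold higher and lower at day 6 in wt/wt was 2082 and 338 as reported, 1201 and 1065 centred, and 1183 and 1107 after quantile normalization; in fl/fl it was 1394 and 330, 1021 and 587, and 928 and 674. Between genotypes at day 4 it was 157 and 12, 82 and 19, and 117 and 40. Epha1 at 19.1 and 26.1 at day 4 lies close to the filter's 16.9, which limits its fold. No paired analysis was possible because each group has 1 array and the labels give no replicate numbers.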
